A study of Arabidopsis thaliana with 9 samples.

Results

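SPT, ALC, NGA1, RBE and JAG are 5 transcription factor genes of Arabidopsis that shape the pistil, the fruit and the petals. They were taken by gene symbol from the probe annotation, and each had 1 probe set with 1 named gene, out of 22746 probe sets tested and 13513 with 1 named gene. Their loci are AT4G36930 for SPT, AT5G67110 for ALC, AT2G46870 for NGA1, AT5G06070 for RBE and AT1G68480 for JAG. RefSeq lists 3 transcripts each for ALC and JAG and 1 each for SPT, NGA1 and RBE, and a single probe set does not separate transcripts.

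All plants carried the transgene LAT52-HF-RPL18, in which the pollen promoter ProLAT52 drives an epitope-tagged ribosomal protein L18, and grew at 22 °C under 18 h of light and 6 h of dark. Polysomes from a 20% to 60% sucrose gradient were pulled down with FLAG antibody, and their mRNA was amplified and hybridised to 9 Affymetrix arrays, 3 biological replicates per group. The in vivo group came from self-pollinated material labelled stage 14 and as pollen tube, the in vitro group from pollen tubes grown in culture, and the bud group from floral buds of stage 11 to 12, labelled as pollen grains and tubes. The study's design text instead speaks of styles without pollination for the bud group; the sample labels were followed here. No group of plants without the tag was analysed here.

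SPATULA (SPT) and ALCATRAZ (ALC) are closely related basic helix-loop-helix factors. SPT builds the carpel margin tissues, the style, the stigma and the transmitting tract through which pollen tubes grow, and ALC makes the separation layer where the ripe fruit opens. NGATHA1 (NGA1) is a B3-domain factor that acts with its paralogs NGA2 to NGA4 in making the style and stigma. RABBIT EARS (RBE) and JAGGED (JAG) are C2H2 zinc finger factors: RBE acts early in petal initiation downstream of UFO, and JAG drives growth of lateral organs such as petals and leaves. All of them are known for work in sporophytic flower tissue, not in the pollen tube.

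The bud and in vivo arrays, both labelled as pollen, also carried markers of green tissue and pistil. Of 14 pollen tube markers 12 were measured, and their summed signal per array was 17826 to 40353 in vivo, 522600 to 822996 in vitro and 2849 to 6288 in bud. PLIM2a alone averaged 12780 in vivo and 2248 in bud. In the limma fit described below, 6 of the 12 were called higher in vivo than in bud and 0 lower. AGL104 averaged 502 in vivo and 427 in bud, and AGL66 489 and 312, with overlapping arrays for both. Of 6 green tissue markers 4 were measured, at 30032 to 45862 in vivo, 286 to 602 in vitro and 31192 to 56986 in bud. The tapetum, which feeds developing pollen, had 5 of 8 markers measured, with sums of 521 to 1063 in vivo, 113 to 876 in vitro and 14612 to 23313 in bud. Unlike the sum, its marker EMS1 averaged 665 in vivo, 115 in vitro and 718 in bud. The pistil and ovule list had 2 of 10 measured, AT3G12000 and INO, with sums of 3392 to 3797 in vivo, 79.3 to 179 in vitro and 1614 to 2302 in bud. AT3G12000 averaged 3230 in vivo and 1756 in bud, and INO 331.5 and 298.5, with overlapping INO arrays. Neither was called between in vivo and bud in the limma fit described below. BPEp was the 1 of 4 petal and stamen markers measured, at 777 to 1339 in vivo, 12.2 to 45.1 in vitro and 591 to 992 in bud. SWEET9, the 1 of 2 nectary markers measured, stood at 8440 to 8636 in vivo, 108 to 309 in vitro and 213 to 648 in bud. The 2 of 6 sperm markers measured had sums of 246 to 346 in vivo, 4343 to 6163 in vitro and 632 to 1031 in bud. They differed: MGH3 averaged 245 in vivo, 4491 in vitro and 262 in bud, and TET11 39.4, 855.5 and 590. Read against the highest bacterial control of each array, described below, 2 of the 4 green tissue markers (RCA and PSBY) were above it on all 3 in vitro arrays and 2 on none. The nectary marker SWEET9 was above it on all 3 in vitro arrays as well, and BPEp on none. INO was above it on 1 in vitro array and AT3G12000 on none, and of the 5 tapetum markers 2 (EMS1 and AMS) were above it on 1 in vitro array and 3 on none. Markers of flower tissue thus moved with the groups compared below, and their part in each result was not tested. Each signal is of mRNA pulled down with polysomes from many cells. Fewer cells of a type, less RNA per cell and less of that RNA pulled down cannot be told apart. Without plants lacking the tag, RNA carried over from untagged cells cannot be told apart either.

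A low signal was read against 27 control probe sets for bacterial transcripts that Arabidopsis does not make. The highest of these on each array was 24.2 to 31.6 in vivo, 75.1 to 222 in vitro and 31.3 to 48.1 in bud. In vitro replicate 3 held the 222, and its median hybridisation control, at 78112, stood far above the 1719 to 17569 of the other 8 arrays. In vivo replicate 1 had the 1719, and the others lay at or above 5995. In vitro replicate 3 was the brightest in vitro array for 48.7% of all probe sets and for 4 of the 5 genes described here, so results that rest on it are given with and without it.

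SPT was highest in bud. Its signal was 200, 238 and 148 on in vivo replicates 1 to 3, 87.3, 76.9 and 257 on the in vitro replicates, and 311, 447 and 368 on the bud replicates. The in vivo and in vitro arrays all lay below the bud arrays, while in vivo and in vitro overlapped through in vitro replicate 3. Signals averaged 195 ± 45.4 in vivo, 140.4 ± 101 in vitro and 375 ± 68.5 in bud (SD, n = 3 each). The SPT signal was above the highest bacterial control on all 3 in vivo and all 3 bud arrays and on 2 in vitro arrays.

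ALC was bright in both flower groups and dim in 2 of 3 cultures. Its signal was 621, 563 and 774 in vivo, 20.1, 14.5 and 224 in vitro, and 938, 605 and 710 in bud. The in vitro arrays did not overlap with those of either other group, and in vivo and bud overlapped. The means were 653 ± 109 in vivo, 86.2 ± 120 in vitro and 751 ± 170 in bud (SD, n = 3 each), so the in vitro SD exceeded its mean. On in vitro replicates 1 and 2 the ALC signal was below the highest bacterial control, and on replicate 3 it stood at 224 against a highest control of 222.

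NGA1 had the tightest replicates of the 5 genes in vivo and in bud. Its signal was 265, 247 and 239.5 in vivo, 14.3, 12.0 and 8.33 in vitro, and 227, 255 and 224 in bud. In vivo and bud arrays lay together, and every in vitro array lay far below both. Signals averaged 250.3 ± 13.1 in vivo, 11.5 ± 3.00 in vitro and 235 ± 17.5 in bud (SD, n = 3 each). All 3 in vitro signals were below the highest bacterial control of their array, and the median bacterial control there was 11.0 to 17.7, so the in vitro NGA1 signal lay in the range of these controls.

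RBE was near the bacterial controls in all 3 groups. Its signal was 35.3, 35.8 and 23.8 in vivo, 61.6, 74.8 and 212 in vitro, and 64.1, 26.2 and 9.58 in bud. The in vitro arrays were above all in vivo arrays but overlapped with bud through bud replicate 1. The means were 31.6 ± 6.80 in vivo, 116 ± 83.5 in vitro and 33.3 ± 28.0 in bud (SD, n = 3 each). RBE exceeded the highest bacterial control on 2 in vivo arrays, on 0 in vitro arrays and on 1 bud array.

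JAG overlapped between all groups. Its signal was 81.9, 104 and 121 in vivo, 86.0, 95.7 and 120.1 in vitro, and 90.8, 57.3 and 82.5 in bud. No group stood apart from the others. The means were 102 ± 19.5 in vivo, 101 ± 17.6 in vitro and 76.9 ± 17.5 in bud (SD, n = 3 each). JAG was above the highest bacterial control on every in vivo and bud array and on 2 in vitro arrays, but not on in vitro replicate 3.

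**Figure D1:**
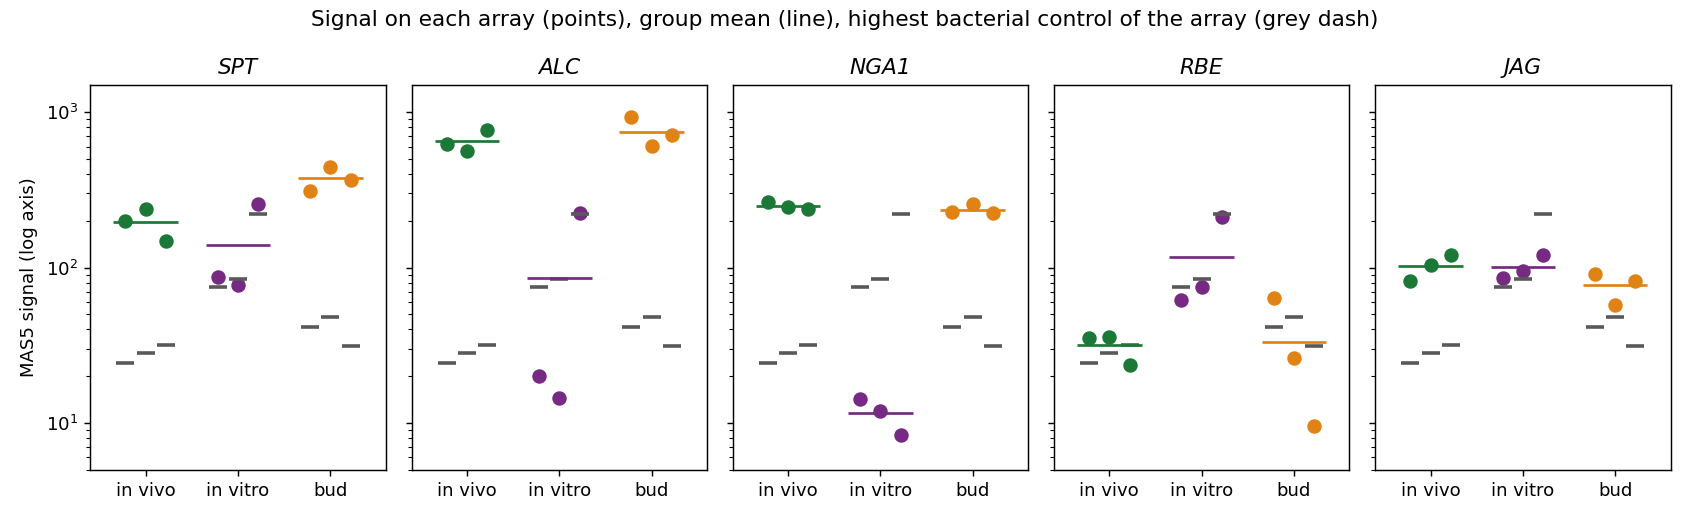
MAS5 signal (log axis) of each gene on each array, with replicates 1 to 3 from left to right within the in vivo, in vitro and bud groups; lines are group means and grey dashes the highest of 27 bacterial controls on that array. NGA1 in vitro lies at 8.33 to 14.3, under all 3 dashes, while ALC in vitro has 2 arrays at 20.1 and 14.5 and 1 at 224.

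Setting in vivo against bud addressed what differs between self-pollinated stage 14 material and younger buds. The 2 groups differ in floral stage as well as in pollination, and these cannot be told apart. limma, fitted to log2(signal + 16) over all probe sets with Benjamini-Hochberg adjustment, called 0 of the 5 genes at an adjusted p under 0.05, against 4.02% of all probe sets (2.15% higher and 1.87% lower), and 0 of the 5 had an unadjusted p under 0.05. The lowest p was that of SPT, whose log2 fold was -0.90 ± 0.43 (SE; 95% interval -1.84 to 0.05; adjusted p = 0.477). SPT was also the 1 gene with all in vivo arrays apart from all bud arrays, a separation seen in 22% of all probe sets. NGA1 had the narrowest interval, with a log2 fold of 0.09 (-0.55 to 0.72). The log2 folds of ALC, RBE and JAG were -0.19 (95% interval -1.61 to 1.24), 0.10 (upper bound 1.19) and 0.35 (-0.34 to 1.05). The intervals of ALC, RBE and JAG each reached past 1 log2 unit. The fit pools the spread of all groups, so these widths and the unadjusted p-values also hold the in vitro spread. With the 6 in vivo and bud arrays compared alone, the ALC SE was 0.28 in place of 0.65. Without in vitro replicate 3 it was 0.29. The SPT SE with the 6 arrays alone was 0.29 in place of 0.43, at the same fold (adjusted p = 0.123 in that limma fit). Under both settings 0 of the 5 genes were called. Over all 5 genes the median log2 fold was 0.09, beside -0.02 over all probe sets.

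Setting in vitro against bud addressed how cultured tubes differ from buds. Of the 5 genes, 4 were called, beside 60.9% of all probe sets. The 3 pistil and fruit genes were lower in vitro, as were 40.5% of all probe sets, and RBE was called higher, as were 20.4%. ALC had a log2 fold of -3.56 ± 0.65 (SE; adjusted p = 0.000544 in the limma fit), and without in vitro replicate 3 it was -4.51 (adjusted p = 7.13e-07). NGA1 had a log2 fold of -3.19 ± 0.29 (SE; adjusted p = 2.28e-06), while SPT was at -1.49 ± 0.43 (SE; adjusted p = 0.0103). Without in vitro replicate 3 the SPT fold was -1.98, and it was still called. For ALC and NGA1 the in vitro level was at or near that of the bacterial controls, so these folds depend on the offset of 16: they were -4.14 and -4.27 with an offset of 1, and -2.70 and -1.99 with an offset of 64. For these 3 genes every in vitro array lay below every bud array, as in 41.1% of all probe sets; 0 of the 5 genes had the opposite separation, seen in 22.7%.

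SPT in vitro depended on how the arrays were scaled. The median signal of all probe sets was 68.6 to 112 in vitro and 175 to 196 in bud. Over all probe sets the median log2 fold was -0.42 as deposited, 0.22 with quantile normalization and 0.63 with equal array medians. Under these 2 scalings the SPT fold was -0.23 (adjusted p = 0.624) and -0.43 (adjusted p = 0.316), so its call was lost. ALC, at -2.69 and -2.50, and NGA1, at -2.60 and -2.14, remained past the threshold.

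RBE had a log2 fold of 1.41 ± 0.50 in vitro against bud (SE; adjusted p = 0.0290 in the limma fit), from signals under the highest bacterial control of each in vitro array. Without in vitro replicate 3 it was 0.92 (adjusted p = 0.0911), without bud replicate 2 it was 1.37 (adjusted p = 0.0747) and without bud replicate 3 it was 1.01 (adjusted p = 0.127). The call thus depended on single arrays. JAG was not called, at 0.34 ± 0.32 (SE; adjusted p = 0.379), but with quantile normalization and equal medians it was called higher in vitro, at 1.37 (adjusted p = 0.00296) and 1.40 (adjusted p = 0.00319). The median log2 fold of the 5 genes was -1.49, beside -0.42 over all probe sets.

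**Figure D2:**
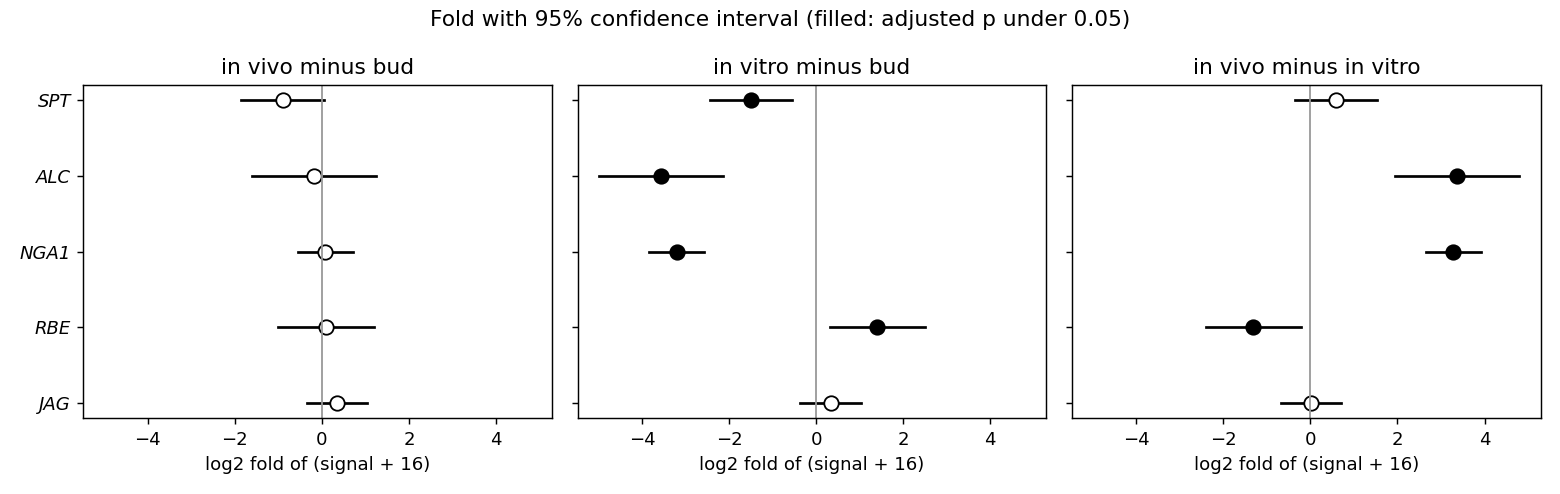
Log2 fold of (signal + 16) with its 95% confidence interval for each gene in the 3 comparisons; filled points have an adjusted p under 0.05. All 5 intervals include 0 for in vivo against bud, while ALC at -3.56 and NGA1 at -3.19 lie far below 0 for in vitro against bud.

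Setting in vivo against in vitro addressed how self-pollinated material differs from tubes in culture. The in vivo arrays also carried the markers of green tissue and pistil described above, so the folds are not those of tubes alone. Of the 5 genes, 3 were called, beside 59.3% of all probe sets. ALC and NGA1 were called higher in vivo, a direction called for 39.4% of all probe sets, and RBE was called lower, as were 20%. NGA1 had a log2 fold of 3.28 ± 0.29 (SE; adjusted p = 2.3e-06 in the limma fit), and ALC was at 3.37 ± 0.65 (SE; adjusted p = 0.000823). Without in vitro replicate 3, ALC was at 4.32 (adjusted p = 1.24e-06) and NGA1 at 3.19 (adjusted p = 3.72e-06). RBE had -1.31 ± 0.50 (SE; adjusted p = 0.0406), and it lost its call when in vitro replicate 3 (-0.83, adjusted p = 0.130), bud replicate 2 (-1.31, adjusted p = 0.0574) or any in vivo replicate (adjusted p = 0.0747 to 0.112) was left out. The in vivo and in vitro arrays did not overlap for ALC and NGA1 (higher in 40.7% of all probe sets) or for RBE (lower in 22.8%). This comparison shares its in vivo and its in vitro arrays with the other comparisons, so the 3 sets of folds are not independent.

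SPT and JAG were not called between in vivo and in vitro. SPT had a log2 fold of 0.59 ± 0.43 (SE; 95% interval -0.35 to 1.54; adjusted p = 0.259), which became 1.09 and was called without in vitro replicate 3 (adjusted p = 0.0133). With quantile normalization and equal medians its sign turned, to -0.58 (adjusted p = 0.208) and -0.43 (adjusted p = 0.314). JAG had 0.02 ± 0.32 (SE; 95% interval -0.68 to 0.71; adjusted p = 0.967), and under the same scalings it was called lower in vivo, at -1.01 with quantile normalization (adjusted p = 0.0152) and -1.01 with equal medians (adjusted p = 0.0194). Over all probe sets the median fold was 0.36 log2 units as deposited, -0.26 with quantile normalization and -0.67 with equal medians.

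The place of each gene among all probe sets of its own array does not depend on the scaling. NGA1 lay at percentiles 55.3 to 57.4 in vivo, 7.18 to 21.3 in vitro and 53.4 to 56.0 in bud. ALC lay at 75.2 to 81.0 in vivo, 21.7 to 70.3 in vitro and 75.5 to 84.3 in bud. SPT lay at 45.2 to 56.8 in vivo, 53.6 to 73.5 in vitro and 63.2 to 68.8 in bud, so its in vitro place overlapped with both other groups. JAG lay at 36.2 to 41.5 in vivo, 51.9 to 60.0 in vitro and 30.7 to 37.3 in bud, and RBE at 14.7 to 25.1 in vivo, 46.5 to 68.9 in vitro and 11.5 to 31.5 in bud. For both of these petal and organ growth genes every in vitro percentile was above every in vivo and bud percentile, as in 28.1% of all probe sets, with in vitro signals above the highest bacterial control on 0 of 3 arrays for RBE and 2 of 3 for JAG. The JAG signal itself averaged 102 in vivo and 101 in vitro, on arrays whose median signal was 174 to 187 in vivo and 68.6 to 112 in vitro.

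**Figure D3:**
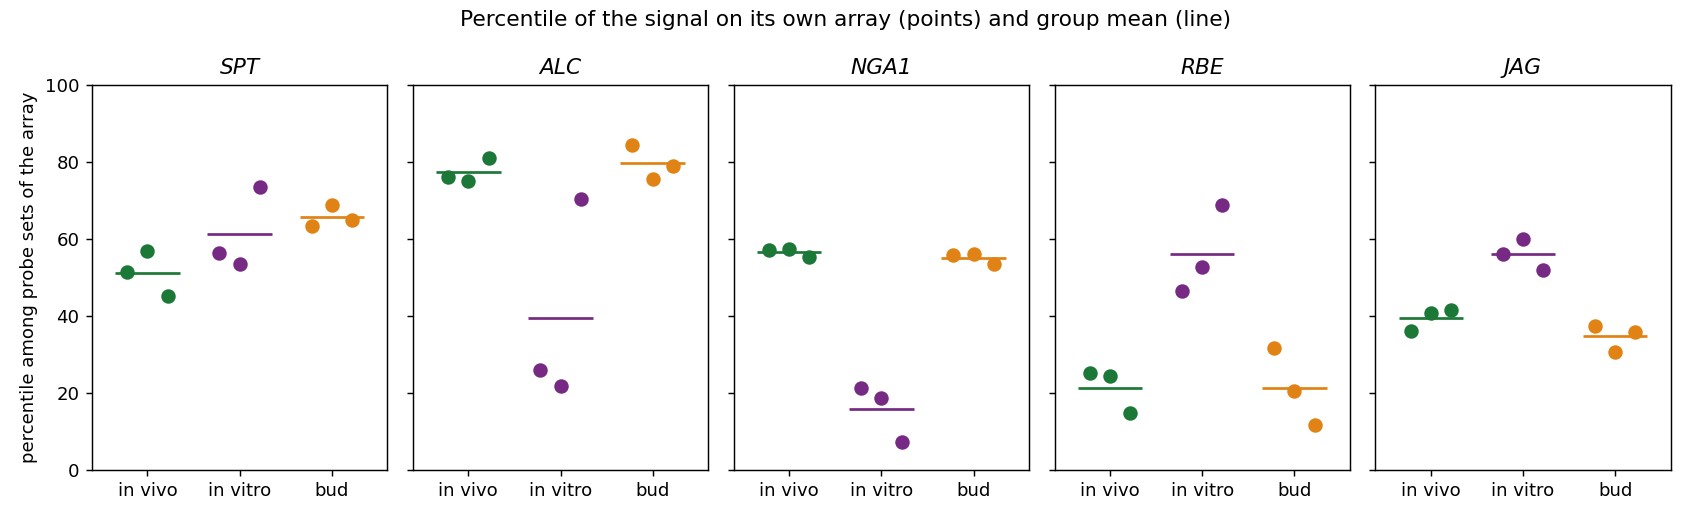
Percentile of each gene's signal among all tested probe sets of the same array, by group, with replicates 1 to 3 from left to right and lines at the group means. NGA1 falls to 7.18 to 21.3 in vitro, while RBE at 46.5 to 68.9 and JAG at 51.9 to 60.0 in vitro lie above their other arrays, a separation seen in 28.1% of all probe sets.

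By level, NGA1 and ALC were lowest in vitro, and their in vivo and bud levels did not differ beyond their spread. As deposited, SPT was highest in bud, and the in vivo level differed from neither bud nor in vitro in the fit. With quantile normalization or equal medians the SPT difference between in vitro and bud was not called, and its percentiles in these groups overlapped. The RBE mean was highest in vitro, but from signals under the highest bacterial control that overlapped with bud, and with both calls lost without in vitro replicate 3, so its order is not settled. The 3 JAG levels did not differ beyond their spread as deposited.

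Other regulators of the same organs and the same protein families were followed through 5 lists. Without the 5 genes, these lists held 97 genes, of which 18 had a probe set with 1 named gene. For in vivo against bud, 0 of these 18 passed the limma test, beside 4.02% of all probe sets, and 1 (ROXY1, lower) did without in vitro replicate 3. Between in vitro and bud it called 9 lower and 0 higher, beside 40.5% lower and 20.4% higher of all probe sets, with a median log2 fold of -0.96 beside -0.42. Between in vivo and in vitro it called 8 higher and 2 lower, beside 39.4% higher and 20% lower of all probe sets, with a median of 0.65 beside 0.36. For in vitro against bud, quantile normalization gave 5 lower and 2 higher, beside 27.4% lower and 30% higher of all probe sets, and equal medians 4 lower and 6 higher, beside 27.1% and 41.7%. For in vivo against in vitro, quantile normalization gave 4 higher and 3 lower, beside 26.3% higher and 30.1% lower, and equal medians 3 higher and 5 lower, beside 26.5% and 41.2%. The balance of calls on the list thus moved with the scaling, as that of all probe sets did.

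Among the gynoecium, style and fruit regulators, a list of 39, 8 besides SPT, ALC and NGA1 were measured and 5 of them were lower in vitro than in bud, beside 40.5% of all probe sets. Quantile normalization gave 3 lower and 1 higher (NGA4), and equal medians 2 lower and 2 higher (NGA4 and NGA3). CES, a bHLH factor of brassinosteroid response also listed as HAF, averaged 1574 ± 423 in vivo, 74.5 ± 83.6 in vitro and 913 ± 283 in bud (SD, n = 3 each), and fell by 3.70 ± 0.57 on the log2 scale (SE; adjusted p = 0.000144) in vitro against bud. The in vitro CES signals were under the highest bacterial control on all 3 arrays, and with offsets of 1 and 64 the fold was -4.16 and -2.93. YAB3, a YABBY factor of the outer side of lateral organs, fell by 3.26 (adjusted p = 0.000953), and INO, the YABBY factor of the ovule's outer integument, fell by 1.67 (adjusted p = 0.000638). SEU, a transcriptional co-repressor of flower development, fell by 1.73 (adjusted p = 0.0222), a call lost without in vitro replicate 3 (-1.02, adjusted p = 0.0568) and with an offset of 1 (adjusted p = 0.0539). With quantile normalization or equal medians INO and SEU were not called. SHI, of the family that acts in style formation, had a log2 fold of -0.27 (adjusted p = 0.590).

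Of the NGA paralogs, NGA2 was lowest in vitro, as NGA1 was. NGA3 and NGA4 were above the highest bacterial control on 3 and 5 of the 9 arrays and give little to compare. NGA2 had signals of 267, 185 and 243 in vivo, 43.5, 34.9 and 33.3 in vitro, and 167, 136 and 150.0 in bud. Its in vitro arrays lay below all others, and it fell by 1.65 ± 0.30 on the log2 scale (SE; adjusted p = 0.000537) in vitro against bud. With equal medians this NGA2 call was lost. NGA4 had 32.2, 76.8 and 26.0 in vivo, 70.3, 106 and 212 in vitro, and 84.2, 41.2 and 92.6 in bud. It was called lower in vivo than in vitro, at -1.22 ± 0.46 (SE; adjusted p = 0.0388), a call lost without in vitro replicate 3 (-0.84, adjusted p = 0.118) and kept under both other scalings. In vitro against bud NGA4 had 0.65 (adjusted p = 0.247), and it was called higher with quantile normalization (1.71, adjusted p = 0.00758) and equal medians (adjusted p = 0.00459). NGA3 had 12.1, 33.1 and 46.3 in vivo, 13.1, 4.57 and 126 in vitro, and 4.83, 4.81 and 44.5 in bud, and was not called as deposited; with equal medians it was called higher in vitro than in bud (1.62, adjusted p = 0.0300). Of the 10 B3 relatives listed, 4 were measured, the 3 paralogs and the locus AT3G11580, which fell by 1.26 (adjusted p = 0.0140) in vitro against bud as deposited and was not called with quantile normalization or equal medians.

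Among the petal and floral organ growth regulators, a list of 28, 5 besides RBE and JAG were measured, and 2 were lower in vitro than in bud, beside 40.5% of all probe sets. Quantile normalization added 1 higher call (UFO) and equal medians 2 (NUB and UFO). BPEp, a bHLH factor that limits petal cell size, had 1339, 973 and 777 in vivo, 12.2, 14.6 and 45.1 in vitro, and 889, 992 and 591 in bud. It fell by 4.45 ± 0.40 on the log2 scale (SE; adjusted p = 2.14e-06) in vitro against bud. All 3 in vitro BPEp signals were under the highest bacterial control, and with offsets of 1 and 64 the fold was -5.25 and -3.33. PTL, a trihelix factor of petal initiation and sepal boundaries, fell by 2.14 (adjusted p = 0.000652), from in vitro signals of 6.63, 12.5 and 5.36 that lay under the bacterial maximum and the offset itself. Its fold was -3.36 and -1.12 with offsets of 1 and 64, so its size is set by the offset. Both calls held with quantile normalization and with equal medians. ROXY1, a glutaredoxin of petal initiation, had 46.2, 43.8 and 66.5 in vivo, 81.2, 27.1 and 364 in vitro, and 160, 155 and 189 in bud; in vivo against bud its log2 fold was -1.44 (adjusted p = 0.378). Without in vitro replicate 3, ROXY1 was called lower in vivo than in bud (-1.44, adjusted p = 0.0326) and lower in vitro than in bud (-1.50, adjusted p = 0.00524).

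UFO and NUB, the genes closest to RBE and JAG in role or sequence, also had signals near the bacterial controls. UFO, the F-box protein gene upstream of RBE, had 5.61, 10.8 and 10.8 in vivo, 63.5, 15.0 and 42.7 in vitro, and 19.2, 5.51 and 26.3 in bud. It was called lower in vivo than in vitro, at -1.07 (adjusted p = 0.0418), which without in vitro replicate 3 was -0.99 (adjusted p = 0.0748) and with an offset of 64 was -0.49 (adjusted p = 0.0942). In vitro against bud UFO had 0.72 (adjusted p = 0.150), and it was called higher with quantile normalization (adjusted p = 0.0222) and equal medians (1.78, adjusted p = 0.00299). Every UFO signal was below the highest bacterial control of its array. NUB, the paralog of JAG that acts in stamens and carpels, had 23.1, 43.1 and 44.5 in vivo, 64.5, 105 and 7.12 in vitro, and 40.9, 2.50 and 33.6 in bud. Its arrays overlapped in every comparison, and in vitro against bud its log2 fold was 0.70 (adjusted p = 0.339). NUB was called higher there without in vitro replicate 3 (1.40, adjusted p = 0.0261) and with equal medians (1.76, adjusted p = 0.0384).

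Of the 18 single C2H2 zinc finger relatives listed, 4 were measured, and the locus AT1G68360 fell by 1.96 (adjusted p = 0.00701) in vitro against bud. This call was lost with quantile normalization and with equal medians. GIS, a trichome regulator, and TAC1, a telomerase regulator, had log2 folds of -0.66 (adjusted p = 0.312) and 0.28 (adjusted p = 0.459). Without in vitro replicate 3, GIS was called lower in vitro than in bud (-1.40, adjusted p = 0.00283) and higher in vivo than in vitro (1.35, adjusted p = 0.00360). With equal medians TAC1 was called higher in vitro than in bud (1.34, adjusted p = 0.00263), from signals under the bacterial maximum on all 9 arrays. Of the 13 bHLH relatives of SPT and ALC, the locus AT4G28815 was the 1 measured, with 20.2, 28.0 and 1.87 in vivo, 7.09, 15.1 and 250.5 in vitro, and 2.23, 4.24 and 7.37 in bud, and a log2 fold of 1.49 in vitro against bud (adjusted p = 0.112). With equal medians that fold was called (2.55, adjusted p = 0.00457), and without in vitro replicate 3 it was 0.39 (adjusted p = 0.436). As with ALC, the signal of AT4G28815 was far higher on in vitro replicate 3 than on the other in vitro arrays.

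**Figure D4:**
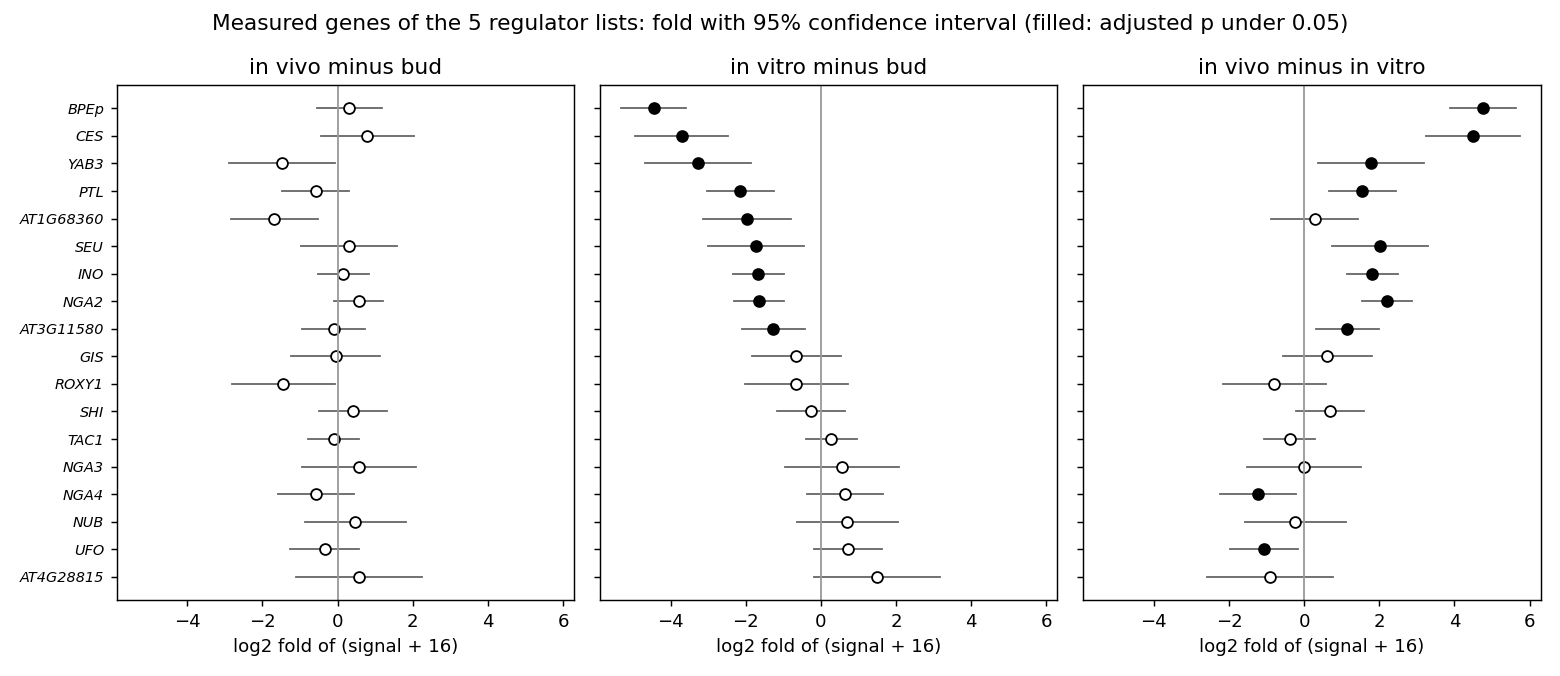
Log2 fold of (signal + 16) with its 95% confidence interval for the 18 measured genes of the 5 regulator lists, ordered by their fold in vitro against bud; filled points have an adjusted p under 0.05. None is filled for in vivo against bud, and 9 are filled below 0 for in vitro against bud, from BPEp at -4.45 to AT3G11580 at -1.26.

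The genes whose pattern over the 9 arrays was most like each of the 5 were found by Pearson correlation of log2(signal + 16) among 8395 named probe sets with a group mean above 130.3. The arrays fall into 3 groups, so a high r can repeat the group means or a spread shared within a group, and r is given as a description. NGA1 was most like AT5G28220 (r = 0.999), RPN12a, a subunit of the proteasome's regulatory particle (0.998), and AT3G13226 (0.998). RPN12a had 2029 ± 244 in vivo, 147 ± 27.7 in vitro and 2000 ± 199.5 in bud (SD, n = 3 each). ALC was most like AT1G80690 (0.995), AT2G14460 (0.995) and AT3G60810 (0.994), and each of these had a large in vitro spread as well, such as 109 ± 115 for AT3G60810 (SD, n = 3). SPT was most like AT5G61340 (0.985), AT5G41460 (0.979) and AT3G58000 (0.969). RBE was most like AT1G41870 (0.979), AT1G35617 (0.955) and AT1G77540 (0.952). In vitro spread was large here too, at 57.4 ± 45.4 for AT5G61340 and 131 ± 125 for AT1G41870 (SD, n = 3 each). AT1G41870 averaged 11.3 in vivo and 19.4 in bud, so it passed the signal limit through its in vitro mean alone. JAG had no close match: PMEPCRF, a pectin methylesterase gene, reached 0.848, the cytochrome P450 gene CYP71B27 0.813 and AT5G57760 0.804.

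**Figure D5:**
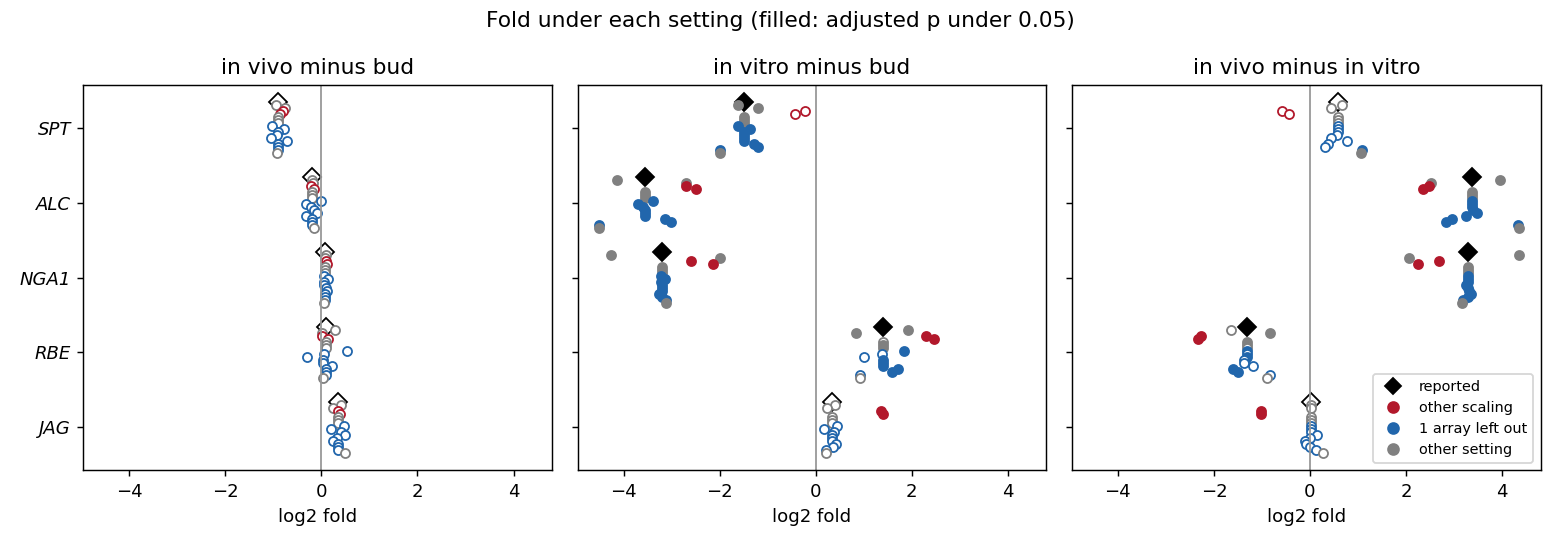
Log2 fold of each gene in the 3 comparisons under the reported setting (diamond) and 17 alternatives (circles); filled symbols have an adjusted p under 0.05. ALC and NGA1 keep 1 sign and stay filled in both comparisons with in vitro, while SPT and JAG cross 0 between in vivo and in vitro when the scaling changes.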

How the data were processed

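The deposited values are intensity values, 1 signal per probe set and array on a linear scale, which the submitters' processing notes credit to MAS5 (version not given in the sources used here). After trimming 2% of values at each end, every array had a mean of about 500, so the arrays shared 1 scaled mean. Their medians differed, so the distributions were not matched between arrays. Of 22810 probe sets, 64 controls were left out. The gene table named 1 gene for 13513 probe sets, several for 503 and none for 8730. Values were analysed as log2(signal + 16) without a filter. One limma model (3.58.1, under R 4.3.3) with a mean for each group took in all 9 arrays. Its two-sided p-values had Benjamini-Hochberg adjustment across the 22746 probe sets, with calls at 0.05, and the script was tested on simulated data. An exact permutation test of 3 against 3 arrays cannot go below p = 0.1, so none is given. The number of arrays limits the precision. Percentiles are ranks among the tested probe sets of an array.

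The 5 genes and the gene lists were chosen with earlier results of these data known. Named list genes are those with the largest absolute moderated statistic, up to 6 per list and comparison; the 3 most alike genes per member had 1 named gene and a highest group mean above the median signal. Signals of different probe sets were not compared with each other. Alternatives were offsets of 1 and 64, quantile normalization, equal array medians, the 6 arrays compared alone, a mean signal of at least 50, a replicate block and each array left out. Leaving out in vivo replicate 1 and in vitro replicate 3 together was added after seeing the data.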

Additional observations from a re-analysis of the deposited data

How the results depend on the processing

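Across 17 alternatives, ALC and NGA1 kept their direction and their call in both comparisons with in vitro: ALC ranged from -4.51 to -2.50 against bud and 2.34 to 4.35 for in vivo against in vitro, and NGA1 from -4.27 to -1.99 and 2.06 to 4.36. Of all 255 settings of the 5 genes, 227 kept direction and call. This total includes in vivo against bud, where 0 of the 5 genes were called as reported. It also includes settings that left out an array outside the comparison, which cannot move the fold. The settings share arrays, so the total does not measure how firm the results are. With quantile normalization and equal medians, SPT in vitro against bud was -0.23 and -0.43 (not called), and in vivo against in vitro -0.58 and -0.43 (sign turned). Under the same scalings JAG was 1.37 and 1.40 in vitro against bud (called) and -1.01 and -1.01 in vivo against in vitro (sign turned, called). JAG in vivo against in vitro, near 0, also had -0.094 to 0.15 with single arrays left out. RBE in vitro against bud was 1.41 with the 6 arrays alone (adjusted p = 0.0609), and 0.92 to 1.84 with single arrays left out. For in vivo against in vitro RBE was -1.65 with an offset of 1 (adjusted p = 0.0750), and -1.61 to -0.83 with single arrays left out. For in vivo against bud it was -0.30 to 0.53. Over all 17 alternatives RBE in vitro against bud ranged from 0.83 to 2.46, and 12 called it (lowest adjusted p = 0.000555 in the limma fits). For in vivo against in vitro the range was -2.34 to -0.82, and 9 called it (lowest adjusted p = 0.000847). SPT in vivo against in vitro was 0.31 to 1.09, and in vitro against bud -1.98 to -1.21, with single arrays left out. Without both arrays that had outlying hybridisation controls, RBE was 0.92 in vitro against bud and -0.89 in vivo against in vitro (neither called), and SPT was 1.06 in vivo against in vitro (adjusted p = 0.0391). The 915 probe sets called between in vivo and bud became 579 at offset 1, 1378 when fitting 6 arrays, and 541 to 1292 when single arrays were dropped. The causes were not tested. Same-numbered arrays of different groups deviated together at r = -0.05 to 0.07, so the numbers did not pair the arrays; with a replicate block RBE in vivo against in vitro was -1.31 (adjusted p = 0.0620), the 1 call of the 5 genes that it ended, and probe sets called were 784 in vivo against bud, 13844 in vitro against bud and 13412 in vivo against in vitro. Signals near the bacterial controls limit RBE in all groups, and ALC and NGA1 in vitro.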
